A study of Drosophila melanogaster with 8 samples.

Results

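The transcriptomes of adult females and larvae of the genotype A12/A12 of Drosophila melanogaster were compared gene by gene, with all 4 A12 libraries, out of 8 libraries in the series. RNA was taken from whole females, either larvae of the third instar or adults aged 2 to 3 days, all kept on standard food at 18 °C, and each stage had 2 libraries. The other 4 libraries came from A4/A4 females of the same 2 stages, homozygous for the inversion In(2)A4, which the series presents as showing position effect variegation. A12/A12 stood as the wild type of that design, and the labels say no more about the origin of this genotype. Whether the 2 libraries of a group came from separate cultures is not stated in the labels, and a p-value here measures no more than the spread between libraries, which may be technical. How far the larvae had advanced within the third instar was not recorded either.

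The larva of the last instar feeds, stores protein and lipid in its fat body, and towards the end of the instar responds to pulses of the steroid ecdysone by wandering, making salivary glue and forming a puparium. In metamorphosis most larval tissues are destroyed, and the adult body is built from imaginal discs and other reserved cells. The young adult female then runs ovaries that load eggs with yolk, eggshell and maternal RNA, a retina, and flight muscle rich in mitochondria.

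Expression was given as FPKM, fragments per unit length of a gene model, adjusted for library size. Read counts were not part of the values, and the absolute depth was unknown. Judged by the confidence bounds of 500 weak genes, the depth relative to larval replicate 1 was 1.14 in larval replicate 2, 0.982 in adult replicate 1 and 1.15 in adult replicate 2. Between 8531 and 8844 genes reached 1 FPKM in the 4 libraries. Across genes the 2 adult libraries correlated at 0.957 and the 2 larval libraries at 0.965, and an adult with a larval library at 0.631 to 0.653. Genes are not independent replicates, so these correlations only describe the libraries. The 10 strongest genes outside the small RNAs held 16.97% and 23.1% of the FPKM sum in larvae and 11.7% and 12.3% in adults. Male tissue markers were low in all 4 libraries. Of 50 testis and sperm genes, 7 and 6 reached 1 FPKM in larvae and 7 in each adult library, 25 to 27 were listed at 0, and their summed FPKM was 80.9 to 106.0. These include twe, also in the replication and mitosis list, at 20.95 and 13.7 FPKM in adults and listed at 0 in both larval libraries. Of 23 male accessory gland genes, 1 or 2 reached 1 FPKM, with a summed FPKM of 3.19 to 14.4.

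Levels below are the deposited FPKM of each library. A change is the adult minus the larval mean on the scale log2(FPKM + 1) after each library was centred at its median, with its standard error, and it understates the change of weak genes. Before centring the median gene stood 0.54 higher in adults, so a gene with equal FPKM at both stages has a change of about -0.54. A gene rose or fell where the adjusted p of the limma test, adjusted over all 9679 genes tested, was under 0.05. A gene listed at 0 in both libraries of a stage is given with no change, since a listed 0 can also be a failed estimate.

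Between the stages 5449 genes differed, in both directions. The expression of 2621 genes rose in adults, 27.1% of those tested, and that of 2828 genes fell, 29.2%, so that 56.3% were called. Each count of a gene list below is to be read against these shares. By at least 1 on the log2 scale 1787 genes rose and 2031 fell, and by at least 4 on that scale 225 rose and 345 fell. In FPKM before centring, where the median gene stood higher in adults, the adult and larval libraries did not overlap for 77.4% of the genes. With 2 libraries a stage this can also occur without a stage difference. The balance of directions depended on the centring. Without it 3974 genes rose and 1701 fell, or 70.0% of the calls upwards in place of 48.1%, and the median change of all genes was 0.48 in place of -0.06. Outside the small RNAs, 231 genes stood at 5 FPKM or more in both adult libraries and at 0.1 or less in both larval libraries. The reverse held for 124 genes. In the A4 libraries 115 of the former and 47 of the latter met the same limits.

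**Figure D1:**
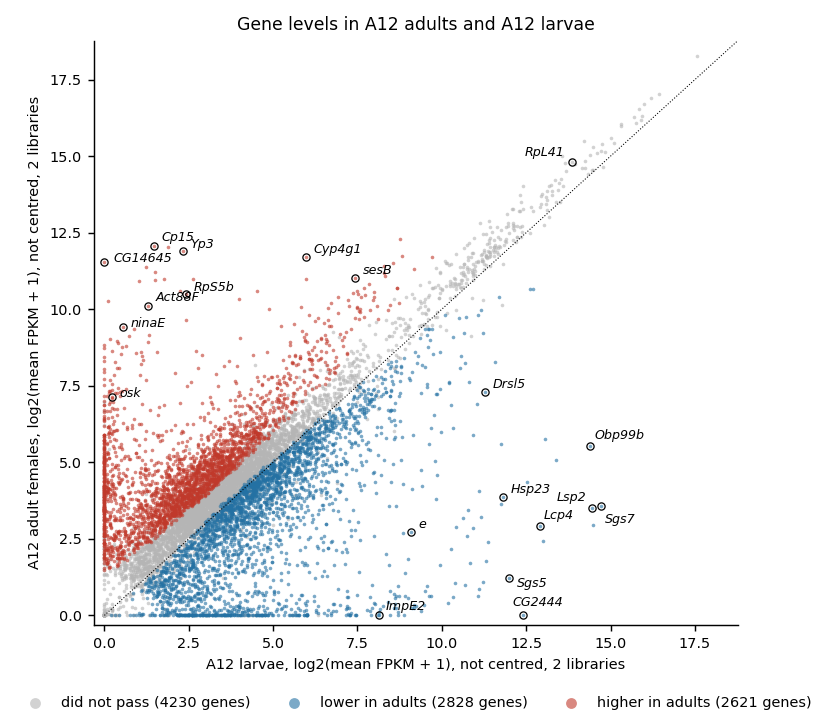
Mean FPKM of each tested gene in the 2 larval libraries (horizontal axis) and in the 2 adult libraries (vertical axis) of A12, as log2(mean FPKM + 1) before centring, with genes that rose (2621), fell (2828) or were not called (4230) in different colours. Yolk, eggshell and opsin genes lie along the adult side, and glue, serum protein and larval cuticle genes along the larval side.

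Genes of egg production rose. All 4 genes of the yolk list rose, with a median change of 8.99. Yp3, a yolk protein (chromosome X, 13653578 to 13655200 in build dm3), stood at 3797 and 3792 FPKM in the adult libraries and at 3.75 and 4.27 in the larval libraries, a change of 9.03 ± 0.23 (adjusted p = 1.4e-06). Yp1 went from 2.44 and 1.26 FPKM in larvae to 2073 and 1938 in adults, and Yp2 went from 2.25 and 1.399 FPKM in larvae to 2447 and 2329 in adults. The 2 adult libraries of each yolk protein lay far above both larval libraries. The receptor that takes yolk proteins into the oocyte, yl, rose as well, from 0.529 and 0.337 FPKM to 485 and 380.4 (change 7.70 ± 0.13, adjusted p = 5.29e-07). In bulk RNA of whole animals, fewer cells of a type and less RNA per cell cannot be told apart, and this holds for every gene below.

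The genes of the eggshell followed. The inner layer, the vitelline membrane, is laid down first by the follicle cells, and all 7 of its genes rose with a median change of 4.58, a median that rests partly on larval values listed at 0. Vm26Aa stood at 119 and 155 FPKM in the adult libraries and at 0.348 and 0 in the larval libraries (change 6.34 ± 0.23, adjusted p = 3.59e-06). Vm32E stood at 121 and 339.9 FPKM in the adult libraries and at 0.437 and 0 in the larval libraries, with a change of 6.87 ± 0.57. Vm34Ca was at 205 and 283 FPKM in adults and was listed at 0 in both larval libraries (adjusted p = 8.11e-06). Larval values were also listed at 0 for Vm26Ab, Vm26Ac and Vml, whose adult libraries held 16.6 and 17.6, 17.5 and 64.3 and 11.3 and 11.96 FPKM. The gene psd, which encodes another vitelline membrane protein, had 10.99 and 12.6 FPKM in adults against 0.558 and 0.395 in larvae, and its change of 2.58 ± 0.21 was the smallest fitted in the list. Vm26Ab, Vm26Ac, Vm26Aa and psd lie side by side on chromosome 2L, within a run of 6 neighbouring tested genes that all rose (5956489 to 5967752 in dm3).

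Of 11 genes of the chorion, the outer eggshell, 10 rose, with a median change of 7.12. Cp15, a late chorion protein, stood at 2343 and 6236 FPKM in the adult libraries and at 2.23 and 1.29 in the larval libraries, a change of 9.92 ± 0.82 (adjusted p = 9e-05). Cp18 went from 0.590 and 0 FPKM in larvae to 441 and 549 in adults, and Cp19 went from 1.93 and 0.271 FPKM in larvae to 432 and 350.2 in adults. The 2 adult libraries were uneven for Cp15, with the higher level in replicate 2, and for Cp36, which stood at 1003 and 298 FPKM in adult replicates 1 and 2, with 1.24 and 0.441 in larvae. The peroxidase gene Pxt, which acts in eggshell assembly, went from 0.115 and 0.0969 FPKM in larvae to 192 and 111 in adults (change 6.52 ± 0.24), and dec-1, which encodes eggshell matrix proteins, went from 0.606 and 0.330 FPKM in larvae to 68.4 and 86.7 in adults (change 5.20 ± 0.20). Cp7Fb was the member not called, at 8.48 and 0.750 FPKM in adults and 0 in both larval libraries (adjusted p = 0.103), and without adult replicate 2 its adjusted p was 0.003.

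The female germline genes rose with the eggshell. Of 36 tested, 28 rose and none fell, with a median change of 3.73. The mRNA of osk, the determinant of the germ plasm at the posterior pole of the egg, stood at 165 and 115 FPKM in the adult libraries and at 0.260 and 0.0853 in the larval libraries (change 6.35 ± 0.15, adjusted p = 1.4e-06). That of nos, a translational repressor of the posterior egg, was listed at 0 in both larval libraries and reached 169 and 114 FPKM in adults (adjusted p = 1.46e-06). BicC, an RNA-binding protein of the oocyte, went from 0.266 and 0.119 FPKM in larvae to 146 and 101 in adults. The maternal tubulin alphaTub67C went from 0.524 and 0.104 FPKM in larvae to 203 and 139 in adults, and dhd, a thioredoxin stored in the egg, rose from 3.05 and 1.73 FPKM to 2498 and 1522 (change 8.66 ± 0.27). The 8 members not called included grk, the ligand that sets the axes of the oocyte, at 6.33 and 4.75 FPKM in adults against 4.14 and 3.11 in larvae (adjusted p = 0.891). Its adult libraries lay just above the larval libraries before centring.

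Genes of the piRNA pathway, which silences transposons in the germline, rose too. Of 20 tested, 18 rose, 1 fell and 1 was not called, and the median change was 2.23. The Argonaute gene piwi was listed at 0 in both larval libraries and stood at 39.2 and 25.3 FPKM in adults (adjusted p = 5.24e-06). The Tudor-domain gene krimp had 23.9 and 18.97 FPKM in adults against 0.443 and 0.269 in larvae, a change of 3.50 ± 0.15, and the helicase gene spn-E had 22.4 and 16.3 FPKM in adults against 0.886 and 0.684 in larvae, a change of 2.96 ± 0.17. The exception was tud, a scaffold of germ granules, at 45.8 and 36.1 FPKM in adults against 59.6 and 48.9 in larvae, where both adult libraries lay below both larval libraries (change -0.94 ± 0.17, adjusted p = 0.00365). Without centring its change was -0.40 and not called (adjusted p = 0.14). The member not called, squ, was listed at 0 in all 4 A12 libraries.

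Genes of DNA replication and mitosis, which are active in dividing and endoreplicating cells of either stage, were mostly higher in adults. Of 44 tested, 38 rose and none fell, with a median change of 1.56. The mitotic cyclin CycB stood at 349 and 276 FPKM in the adult libraries and at 15.4 and 8.405 in the larval libraries (change 4.11 ± 0.20, adjusted p = 9.42e-06). CycA went from 17.2 and 10.9 FPKM in larvae to 221 and 161 in adults, a change of 3.15 ± 0.18, and the replicative helicase subunit Mcm5 went from 8.85 and 8.42 FPKM in larvae to 80.2 and 63.2 in adults, a change of 2.37 ± 0.16. The meiotic phosphatase gene twe and the replication licensing gene dup were listed at 0 in both larval libraries and held 20.95 and 13.7 and 26.9 and 15.7 FPKM in adults. In A4 larvae dup had 1.76 and 2.28 FPKM. A ribosomal protein gene also stood out. RpS5b had 1394 and 1465 FPKM in adults against 5.29 and 3.45 in larvae, a change of 7.54 ± 0.25 (adjusted p = 2.64e-06), while its paralog RpS5a had 2581 and 3113 FPKM in adults against 3487 and 3739.9 in larvae and was not called (adjusted p = 0.0533). Reads shared by the similar coding parts of such pairs could be split between them in the authors' counting, so the levels of both are uncertain.

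The genes of sex determination and the female fat body, taken as 1 list, were mostly not called. Of 10 tested, 2 rose and 2 fell (20.0% each, against 27.1% and 29.2% of all genes), and 6 were not called. The female fat body gene fit stood at 46.01 and 47.4 FPKM in the adult libraries and at 1.78 and 0.290 in the larval libraries (change 4.12 ± 0.33, adjusted p = 8.43e-05). The splicing regulator tra2 had 18.3 and 18.4 FPKM in adults against 9.45 and 5.797 in larvae (change 0.66 ± 0.16), a call lost without adult replicate 2 or larval replicate 2. The splicing cofactor vir was called lower at 9.28 and 6.41 FPKM in adults against 9.68 and 8.61 in larvae, but was not called without centring (adjusted p = 0.419) or without adult replicate 2 (0.0505). The female switch gene tra was listed at 0 in adult replicate 1 and at 5.41 FPKM in adult replicate 2, with 10.5 and 11.8 in larvae. Its adjusted p of 0.0247 passed, and became 0.0629 without larval replicate 1 and 0.0956 without larval replicate 2. Sxl, the master gene of sex determination, had 48.6 and 31.5 FPKM in adults against 46.5 and 29.5 in larvae and was not called (adjusted p = 0.0917).

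Of the protease genes of the spermatheca, the sperm store of the adult female, Send1 stood at 20.2 and 34.1 FPKM in adults and at 0 in both larval libraries (adjusted p = 5.69e-05), and Send2, at 0.296 and 0.253 FPKM in adults and 0 and 0.138 in larvae, was too weak to be tested. The male dosage compensation RNAs were weak at both stages. roX1 had 0.650 and 0.0409 FPKM in adults against 3.04 and 1.21 in larvae (adjusted p = 0.053), and roX2 had 0.135 and 0.154 FPKM in adults against 4.65 and 0.277 in larvae (adjusted p = 0.319). The roX1 difference passed with the A12 libraries alone (adjusted p = 0.0151), and without A4 larval replicate 1 (0.00431) or replicate 2 (0.00512) in the shared spread. A4 larval replicate 2 had 28 of the 50 testis genes at 1 FPKM or more, against 6 or 7 in each of the other 7 libraries. It also had roX1 at 12.4 and roX2 at 34.9 FPKM, against 2.07 and 0.338 in A4 larval replicate 1. These values entered the shared spread behind the roX1 and roX2 tests. Of 16 testis genes tested, 2 rose and 2 fell (12.5% each, against 27.1% and 29.2% of all genes). Among those that rose was twe, named above, which stands in the replication and mitosis list too. Mst87F, a sperm protein gene, was at 6.36 and 4.88 FPKM in larvae and listed at 0 in adults, and without any single A12 library its adjusted p ran from 0.0594 to 0.0729. Of 3 accessory gland genes tested, Acp63F fell, from 6.92 and 9.995 FPKM to 1.65 and 2.21 (change -2.22 ± 0.36).

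Genes of the adult retina rose as well. Of 32 opsin and phototransduction genes tested, 26 rose and 2 fell, with a median change of 2.74. ninaE, the opsin of the outer photoreceptors, stood at 636 and 731 FPKM in the adult libraries and at 0.786 and 0.167 in the larval libraries, a change of 8.35 ± 0.28 (adjusted p = 2.64e-06). Arr2, the arrestin that shuts rhodopsin off, went from 0.654 and 0.465 FPKM in larvae to 355 and 537 in adults, and ninaC, a kinase joined to a myosin, went from 0.434 and 0.164 FPKM in larvae to 58.2 and 72.4 in adults. For these 3 genes no larval library came near an adult library. Pdh, a retinoid dehydrogenase of the retinal pigment cells, was listed at 0 in both larval libraries and stood at 93.5 and 136 FPKM in adults. The 2 genes that fell act in the supply of the chromophore. The retinoid-binding gene pinta had 20.04 and 19.04 FPKM in adults against 50.2 and 37.2 in larvae (change -1.65 ± 0.15), and the carotenoid receptor gene santa-maria had 15.2 and 18.6 FPKM in adults against 66.6 and 45.4 in larvae (change -2.19 ± 0.28).

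Pigment genes of the eye went both ways. Of 18 tested, 3 rose and 9 fell, with a median change of -0.57, and without centring 6 rose and 4 fell. The ABC transporter gene w, which imports pigment precursors and is the classical reporter of variegation, had 2.42 and 2.297 FPKM in adults against 6.35 and 5.07 in larvae (change -1.53 ± 0.15, adjusted p = 0.000207). Both adult libraries were below both larval libraries.

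Odorant-binding proteins, small carriers of the sensory lymph that are also made elsewhere, split between the stages. Of 26 tested, 9 rose and 13 fell, with a median of -1.15, and 25 others were too weak to be tested. Obp57c was listed at 0 in both larval libraries and held 73.98 and 97.2 FPKM in adults (adjusted p = 3.69e-06). Obp19d went from 0.494 and 0.286 FPKM in larvae to 117 and 171 in adults (change 6.15 ± 0.28), and Obp56g went from 0 and 0.319 FPKM in larvae to 91.00 and 127 in adults (change 6.03 ± 0.35). Obp99b was among the 8 strongest genes of the larvae and fell from 10779.8 and 32591 FPKM to 32.6 and 57.9 (change -9.26 ± 0.66, adjusted p = 4.65e-05). Larval replicate 2 lay well above replicate 1, and both lay far above the adult libraries.

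Among 14 clock genes, 8 rose and 2 fell, with a median of 0.88, and without adult replicate 2 or larval replicate 1 only 1 fell. The light receptor gene cry was at 45.5 and 43.8 FPKM in adults and at 0 in both larval libraries (adjusted p = 2.28e-06), and tim, the partner of period, went from 0.287 and 0.0860 FPKM in larvae to 24.3 and 21.3 in adults (change 3.79 ± 0.14). The hour at which animals were taken was not given, and clock genes cycle with it. General neuronal genes were near balance, with 7 higher (23.3%) and 6 lower (20.0%) of 30, against 27.1% and 29.2% of all genes. The median of this list was 0.26, or 0.13 without adult replicate 2, and without centring 17 of its genes rose and 5 fell. The sodium pump subunit gene nrv3 went from 4.64 and 2.48 FPKM in larvae to 28.1 and 26.1 in adults (change 2.13 ± 0.18). Ddc, which encodes the decarboxylase that makes dopamine in neurons and in the epidermis during tanning, fell from 567 and 361 FPKM to 17.05 and 20.5 (change -5.06 ± 0.40, adjusted p = 7.74e-05). The neuronal RNA-binding gene elav went from 8.51 and 3.91 FPKM to 0.505 and 0.291 (change -2.83 ± 0.45). Its model lies within that of arg on chromosome X (403451 to 422063 in dm3), which was listed at 0 in larvae and at 12.2 and 8.06 FPKM in adults. The split of reads between these overlapping models is uncertain, and both values with it.

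**Figure D2:**
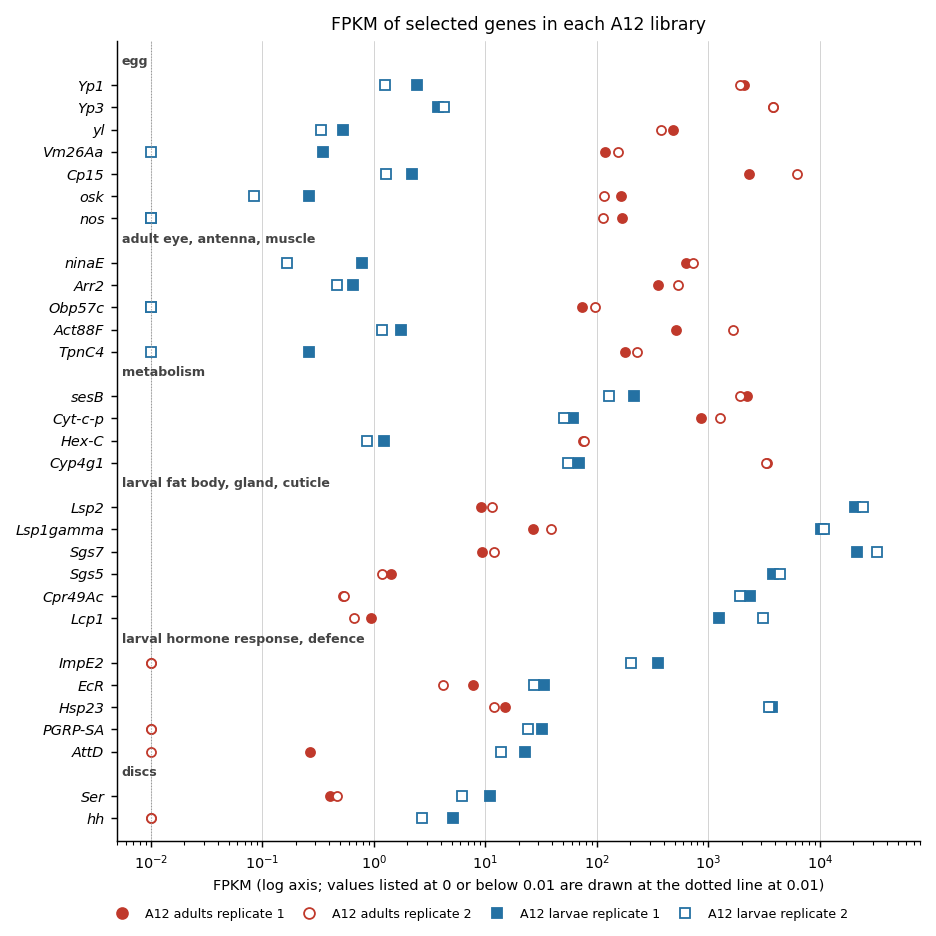
FPKM of named genes in each A12 library on a log axis, larvae and adults in different colours, with a listed 0 drawn at 0.01. For the egg, retina and flight muscle genes both adult libraries lie above both larval libraries, and for the glue, serum protein and larval cuticle genes both lie below.

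All 5 genes of flight and adult muscle rose, with a median of 7.25. Act88F, the actin of the indirect flight muscle, stood at 518 and 1659.9 FPKM in the adult libraries and at 1.74 and 1.18 in the larval libraries (change 8.03 ± 0.56, adjusted p = 4.34e-05). The troponin C gene TpnC4 went from 0.263 and 0 FPKM in larvae to 178 and 231 in adults, and fln, which encodes the thick filament protein flightin, went from 0.493 and 0.324 FPKM in larvae to 266 and 474 in adults. Adult replicate 2 was the higher adult library for each of these, and both larval libraries of each were close to 0. Act79B, an actin of adult tubular muscle, went from 1.76 and 1.25 FPKM in larvae to 399 and 753 in adults (change 7.25 ± 0.34), and TpnC41C, another troponin C, went from 0.269 and 0.0713 FPKM in larvae to 52.8 and 66.9 in adults (change 5.16 ± 0.22).

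Of 6 genes listed as larval muscle isoforms, 3 fell and 1 rose. TpnC73F went from 93.5 and 106 FPKM in larvae to 11.3 and 11.6 in adults (change -3.55 ± 0.38, adjusted p = 0.000286). The actin gene Act57B had 351 and 396 FPKM in adults against 629 and 1094 in larvae (adjusted p = 0.0135) and Mp20 had 264 and 297 FPKM in adults against 307 and 575 in larvae (adjusted p = 0.0407). Both calls were fragile, with adjusted p of 0.0691 and 0.164 without adult replicate 1, and 0.0618 and 0.145 without larval replicate 2. TpnC25D went against the list, listed at 0 in both larval libraries and at 75.3 and 182 FPKM in adults (adjusted p = 4.04e-05). In A4 larvae TpnC25D had 45.8 and 55.6 FPKM. Act87E had 68.2 and 88.02 FPKM in adults against 79.8 and 103 in larvae (adjusted p = 0.0579) and TpnC47D had 12.1 and 8.96 FPKM in adults against 2.14 and 4.78 in larvae (adjusted p = 0.0816), both not called. Without larval replicate 2 TpnC47D passed as higher (0.00592), and Act87E passed as lower without adult replicate 2 (0.0361) or larval replicate 1 (0.0277). Of 24 general muscle genes, 8 rose and 5 fell (33.3% and 20.8%, against 27.1% and 29.2% of all genes). Fhos, a formin that builds sarcomeres, had 88.7 and 67.6 FPKM in adults against 18.97 and 15.4 in larvae (change 1.58 ± 0.19), and Zasp66, a protein of the Z-disc, had 229 and 263 FPKM in adults against 604 and 504 in larvae (change -1.70 ± 0.20). The median of the general list was -0.05. It was -0.48 without adult replicate 2, with 3 genes higher, and -0.54 without larval replicate 1, also with 3 higher. Without adult replicate 1 it was 0.37, and without larval replicate 2 it was 0.53. Without centring 11 rose and 2 fell, with a median of 0.48. Mhc, the muscle myosin heavy chain, had 402 and 534 FPKM in adults against 148 and 254 in larvae and was called without centring (adjusted p = 0.0246) but not with it (0.235).

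Genes of energy metabolism rose as a group. Of 38 oxidative phosphorylation and citrate cycle genes tested, 36 rose and none fell, with a median change of 2.19. The ADP/ATP carrier gene sesB stood at 2228 and 1921 FPKM in the adult libraries and at 216 and 128 in the larval libraries (change 3.09 ± 0.23, adjusted p = 5.51e-05). Cytochrome c, Cyt-c-p, went from 60.9 and 51.2 FPKM in larvae to 870.2 and 1283 in adults (change 3.68 ± 0.27), and blw, the alpha subunit of ATP synthase, went from 237 and 221 FPKM in larvae to 1781 and 1810.3 in adults (change 2.43 ± 0.21). For these 3 genes the lowest adult library lay well above the highest larval library. ND23, a subunit of complex I, went from 29.5 and 21.9 FPKM in larvae to 216 and 233 in adults (change 2.55 ± 0.17). CG10219, which the list holds as a subunit of succinate dehydrogenase, was listed at 0 in both larval libraries and at 262 and 263 FPKM in adults. In A4 larvae CG10219 had 60.7 and 55.8 FPKM, and whether its listed 0 in A12 larvae is a failed estimate was not tested. Idh was not called at 612 and 605 FPKM in adults against 395 and 371 in larvae. The list took 0.736% and 0.680% of the FPKM sum outside small RNAs in larvae and 4.22% and 5.18% in adults.

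Of 21 genes of glycolysis and sugar storage, 18 rose and 1 fell, with a median of 1.53. Without larval replicate 1 the median was 0.996 and 14 rose, and 13 rose without adult replicate 2. The hexokinase gene Hex-C stood at 74.7 and 76.6 FPKM in the adult libraries and at 1.23 and 0.876 in the larval libraries (change 4.69 ± 0.14, adjusted p = 2.03e-06). Gpo-1, the mitochondrial glycerophosphate dehydrogenase that flight muscle relies on, went from 11.9 and 15.4 FPKM in larvae to 171 and 229 in adults (change 3.24 ± 0.30), and UGP, which makes UDP-glucose, went from 21.7 and 23.2 FPKM in larvae to 204 and 200.5 in adults (change 2.58 ± 0.18). The gene that fell was ImpL3, lactate dehydrogenase, with 11.8 and 11.9 FPKM in adults against 87.7 and 125 in larvae (change -3.58 ± 0.26, adjusted p = 5.66e-05).

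Cytoplasmic ribosomal protein genes were nearly all not called after centring. Of 84, RpS5b was the one called, and the median was -0.11, or 0.42 without centring, where 4 rose, and 0.01 without larval replicate 2. Without adult replicate 1 or 2, 1 of them fell. As a share of the FPKM sum outside small RNAs they held 27.9% and 24.8% in larvae and 37.9% and 36.5% in adults. RpL41, the strongest of them and of all adult genes outside the small RNAs, had 28255 and 29249.5 FPKM in adults against 14807 and 14920.2 in larvae and was not called (adjusted p = 0.423).

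**Figure D3:**
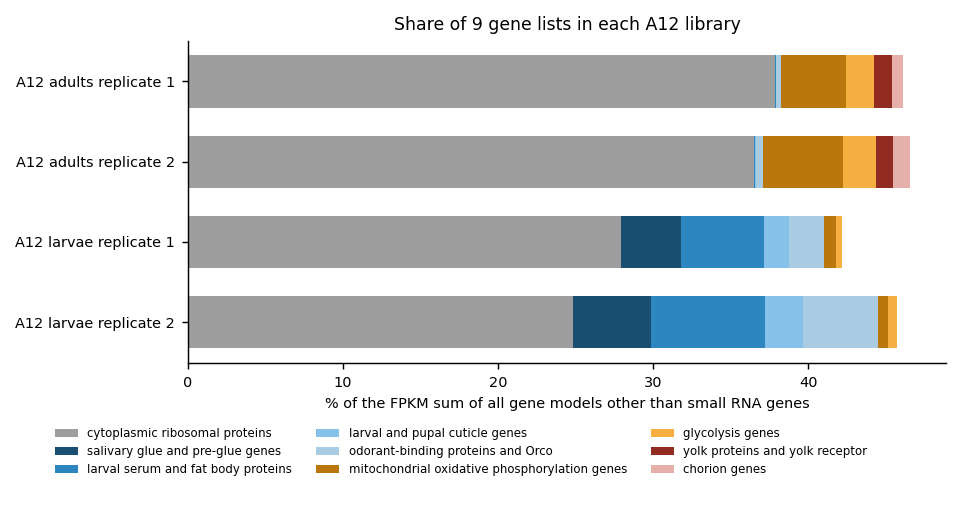
Percent of the FPKM sum outside small RNA genes taken by 9 gene lists in each of the 4 A12 libraries. Glue, serum protein and larval cuticle genes take between 1.60% and 7.41% in larvae and under 0.05% in adults, and yolk, chorion, oxidative phosphorylation and glycolysis genes take more in both adult libraries than in both larval libraries.

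Genes of the secretory tissues of the larva fell. All 6 serum and fat body protein genes tested fell, with a median of -8.74. Lsp2, a storage protein that the fat body secretes before metamorphosis, stood at 9.15 and 11.6 FPKM in the adult libraries and at 20786 and 24322 in the larval libraries (change -11.50 ± 0.29, adjusted p = 1.4e-06). Lsp1gamma went from 10333 and 10989 FPKM in larvae to 26.7 and 39.3 in adults, and Fbp2, a fat body protein related to alcohol dehydrogenase, went from 3505 and 12846 FPKM in larvae to 2.44 and 6.36 in adults. Lsp1beta went from 3294 and 8535 FPKM in larvae to 12.95 and 26.3 in adults (change -8.62 ± 0.60). For each of these, both adult libraries lay far below both larval libraries. Lsp1alpha was the least even, at 327 and 3149 FPKM in larval replicates 1 and 2 and 10.2 and 9.71 in adults (change -7.07 ± 1.02). Rfabg, the apolipoprotein of the lipid carrier lipophorin, had 185 and 117 FPKM in adults against 254 and 193 in larvae. Its adult replicate 1 lay close below larval replicate 2, and the call (adjusted p = 0.0102) was lost without centring, with quantile normalization and without adult replicate 2.

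Glue proteins fix the puparium to its substrate, and all 9 glue and pre-glue genes tested fell, with a median of -7.38. Sgs7 was the strongest gene of the larvae outside the small RNAs and stood at 9.45 and 12.1 FPKM in the adult libraries and at 21451 and 32484 in the larval libraries (change -11.68 ± 0.33, adjusted p = 1.93e-06). Sgs5 went from 3819.8 and 4373 FPKM in larvae to 1.43 and 1.199 in adults (change -11.32 ± 0.19), and Sgs8 went from 2055 and 2735 FPKM in larvae to 0.878 and 1.38 in adults (change -10.67 ± 0.34). Sgs3 was weaker at 182 and 428 FPKM in larvae and 0.303 and 0.159 in adults. The pre-glue gene ng3, expressed in the gland before the glue genes, went from 135 and 224 FPKM in larvae to 0.957 and 0.191 in adults (change -7.38 ± 0.35). The glue list took 3.86% and 4.98% of the FPKM sum in larvae, and the serum list 5.36% and 7.41%. The Eig71E genes, an ecdysone-induced cluster on chromosome 3L, fell in all 6 that could be tested, while 5 were too weak. Eig71Ee went from 373 and 463 FPKM in larvae to 0 and 0.168 in adults (change -9.13 ± 0.28), and Eig71Ea was at 69.6 and 57.2 FPKM in larvae and listed at 0 in adults. They lie in a run of 9 neighbouring tested genes that all fell (15641671 to 15679698).

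The larval cuticle showed the same direction in most of its genes. Of 38 larval and pupal cuticle genes tested, 23 fell and 4 rose, with a median of -1.60. Without centring 8 rose and 19 fell, and with libraries scaled to a common median FPKM 7 rose and 19 fell. Cpr49Ac, a chitin-binding cuticle protein, stood at 0.531 and 0.545 FPKM in the adult libraries and at 2393 and 1915 in the larval libraries (change -10.98 ± 0.16, adjusted p = 5.29e-07). Lcp1 went from 1261 and 3101 FPKM in larvae to 0.943 and 0.670 in adults (change -10.64 ± 0.45), and Lcp4 went from 4556 and 10801 FPKM in larvae to 4.28 and 8.85 in adults (change -10.46 ± 0.54). Lcp2 was listed at 0 in both adult libraries and at 241 and 598 FPKM in larvae, and Pcp, a pupal cuticle protein, went from 1765 and 1379.6 FPKM in larvae to 7.73 and 8.49 in adults (change -7.96 ± 0.27). Both larval libraries of each of these genes lay far above both adult libraries. Among those that rose, Cpr49Ae went from 0.177 and 0.0757 FPKM in larvae to 46.7 and 87.99 in adults (change 5.32 ± 0.44). Of the adult cuticle genes, Acp65Aa and Cpr62Bb rose among 3 tested. Acp65Aa stood at 55.6 and 258 FPKM in adult replicates 1 and 2 and at 0 and 0.746 in larvae (change 5.98 ± 0.84), and Cpr62Bb had 30.6 and 41.5 FPKM in adults against 0.445 and 0.116 in larvae (change 4.31 ± 0.26).

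Of 33 genes that make or remodel chitin, 25 fell and 2 rose, with a median of -2.19. The chitinase gene Cht3 stood at 0.625 and 0.422 FPKM in the adult libraries and at 169 and 119.8 in the larval libraries (change -7.10 ± 0.14, adjusted p = 1.02e-06). The chitin synthase kkv went from 24.5 and 24.97 FPKM in larvae to 0.471 and 0.833 in adults (change -4.51 ± 0.26). The mucin genes of this list went opposite ways, since Muc26B was at 19.8 and 20.7 FPKM in larvae and 0 in adults, while Muc68D went from 0.0710 and 0.0419 FPKM in larvae to 42.95 and 35.4 in adults (change 4.71 ± 0.21). In the tanning pathway, which hardens and colours cuticle, 4 of 15 genes rose (26.7%) and 7 fell (46.7%), against 27.1% and 29.2% of all genes. The median of this list was -0.40, or 0.14 without centring and -0.77 without adult replicate 2. The gene e, the beta-alanyl-dopamine synthase ebony, went from 757 and 325 FPKM in larvae to 3.19 and 8.12 in adults (change -6.87 ± 0.51, adjusted p = 5.87e-05). The yellow family again went both ways, with yellow-e at 7.11 and 7.57 FPKM in adults against 73.9 and 66.3 in larvae (change -3.63 ± 0.16) and yellow-f2 at 11.1 and 15.97 FPKM in adults against 0.306 and 0.445 in larvae (change 2.84 ± 0.26).

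Most genes around ecdysone were lower in adults. Of 21 response genes, 15 fell and 1 rose, with a median of -2.07. EcR, the receptor, stood at 7.698 and 4.17 FPKM in the adult libraries and at 33.7 and 27.4 in the larval libraries (change -2.76 ± 0.20, adjusted p = 5.26e-05). ImpE2, a secreted product of imaginal discs induced by ecdysone, was at 355 and 202 FPKM in larvae and listed at 0 in both adult libraries, and ImpE3 went from 46.4 and 38.1 FPKM in larvae to 1.25 and 0.851 in adults (change -4.94 ± 0.16). The member that rose, the nuclear receptor gene ftz-f1, had 11.3 and 6.58 FPKM in adults against 0.713 and 0.496 in larvae (change 2.06 ± 0.23). Of 11 synthesis genes, 7 fell and 2 rose. The enzyme genes of the prothoracic gland were among those that fell, with sro at 50.6 and 76.6 FPKM in larvae and 0 in adults, phm at 4.59 and 2.74 FPKM in adults against 18.9 and 25.1 in larvae (change -2.86 ± 0.27) and spok at 0.0580 and 0.0148 FPKM in adults against 4.29 and 3.24 in larvae (change -2.73 ± 0.24). The gene tor, the receptor kinase that triggers ecdysone synthesis in the larva and also a maternal gene of the egg that stands in the germline list too, rose from 0.347 and 0.344 FPKM to 20.4 and 17.8 (change 3.36 ± 0.15).

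Most genes of other hormone pathways were not called. Of 12 juvenile hormone genes, 1 rose and 3 fell (8.33% and 25.0%, against 27.1% and 29.2% of all genes). Their median was 0.07, and without centring 5 rose and 2 fell. The counts were 2 and 1 without larval replicate 2, none rose without adult replicate 2 or either A4 adult library, and the median ran from -0.07 without adult replicate 1 to 0.20 without larval replicate 1. Kr-h1, the early response gene of this hormone, had 4.298 and 2.28 FPKM in adults against 15.1 and 6.69 in larvae (change -1.95 ± 0.36, adjusted p = 0.00348). Of 19 insulin pathway genes, 1 rose (5.26%) and 4 fell (21.1%). Their median was -0.35, and without centring 6 rose and 4 fell. Without adult replicate 1 the median was -0.55, and 2 genes rose without larval replicate 1. Ilp8, a relaxin-like peptide that delays metamorphosis when discs are damaged and is also made in the ovary, went from 2.42 and 1.45 FPKM in larvae to 62.6 and 53.5 in adults (change 3.81 ± 0.16, adjusted p = 5.42e-06). Ilp6, the insulin-like peptide of the fat body, went from 14.1 and 7.79 FPKM in larvae to 2.64 and 1.58 in adults (change -2.45 ± 0.24), and Thor, the translation inhibitor 4E-BP, went from 172 and 212 FPKM in larvae to 53.4 and 61.5 in adults (change -2.26 ± 0.32).

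Genes of the imaginal discs were lower in adults. Of 30 tested, 24 fell and none rose, with a median of -1.55, and 17 were too weak to be tested. Ser, a ligand of Notch, stood at 0.407 and 0.473 FPKM in the adult libraries and at 10.96 and 6.25 in the larval libraries (change -3.23 ± 0.23, adjusted p = 4.31e-05). The homeobox gene inv went from 7.93 and 5.998 FPKM in larvae to 0.444 and 0.642 in adults (change -2.90 ± 0.21), and grh, a transcription factor of epidermis and neuroblasts, went from 10.5 and 6.92 FPKM in larvae to 2.59 and 2.21 in adults (change -2.03 ± 0.17). The signal hh was at 5.19 and 2.72 FPKM in larvae and listed at 0 in both adult libraries (adjusted p = 0.000147). The longest run of neighbouring tested genes with 1 direction held 10 genes on chromosome 3R (21823343 to 21866730). It was made of genes of the Enhancer of split complex, targets of Notch, together with Kaz-m1. Gene models in this interval that were not tested are not covered. From E(spl)mdelta-HLH to E(spl)m8-HLH all 10 tested genes fell. Their fitted changes ran from -5.83 for E(spl)malpha-BFM, with 1.27 and 1.62 FPKM in adults against 103.7 and 86.1 in larvae, to -1.26 for E(spl)m3-HLH, with 4.57 and 4.76 FPKM in adults against 10.5 and 6.62 in larvae. E(spl)m4-BFM and E(spl)m8-HLH were listed at 0 in both adult libraries and held 14.2 and 10.4 and 12.8 and 8.29 FPKM in larvae.

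Hemocyte and melanization genes were mostly lower in adults, 13 of 22 against 2 higher, with a median of -1.22. The blood cell marker He was at 12.3 and 8.82 FPKM in larvae and listed at 0 in adults (adjusted p = 6.79e-06). The phagocytosis receptor gene eater had 2.09 and 2.46 FPKM in adults against 10.1 and 11.1 in larvae (change -2.36 ± 0.23), and LanA, a laminin chain, had 25.9 and 21.001 FPKM in adults against 82.6 and 76.8 in larvae (change -2.27 ± 0.19).

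Most antimicrobial peptide and recognition genes fell. Of 44 tested, 29 fell and 3 rose, with a median of -2.41. PGRP-SA, the receptor that senses Gram-positive bacteria upstream of Toll, stood at 32.01 and 23.98 FPKM in larvae and was listed at 0 in both adult libraries (adjusted p = 2.21e-06). The predicted amidase gene PGRP-SB2 went from 196 and 106 FPKM in larvae to 0 and 0.383 in adults (change -7.49 ± 0.30), and the antibacterial peptide gene AttD went from 22.6 and 13.9 FPKM in larvae to 0.268 and 0 in adults (change -4.60 ± 0.20). Drsl5, of the drosomycin family, was strong at both stages with 166 and 146 FPKM in adults against 3068 and 1930.0 in larvae (change -4.49 ± 0.20). Of 8 Turandot and metallothionein genes, 3 fell and 1 rose, the latter not without adult replicate 2 or larval replicate 1. TotA, a humoral stress factor, went from 793 and 558 FPKM in larvae to 15.5 and 19.8 in adults (change -5.71 ± 0.35).

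Of 20 heat shock genes tested, 12 fell and 4 rose, and without larval replicate 2 the latter were 2. Among those that fell were small heat shock proteins, chaperones that ecdysone as well as heat induces in late larvae. Hsp23 stood at 15.2 and 11.9 FPKM in the adult libraries and at 3712 and 3539 in the larval libraries (change -8.51 ± 0.22, adjusted p = 1.4e-06). Hsp67Bc went from 269 and 219 FPKM in larvae to 0.876 and 1.06 in adults (change -7.49 ± 0.18). Both larval libraries of these 2 genes lay far above both adult libraries. Hsc70-1, a constitutive member of the Hsp70 family, went from 0.0972 and 0.0630 FPKM in larvae to 16.7 and 22.7 in adults (change 3.71 ± 0.26). Near-identical Hsp70 copies share reads, and those at more than 1 locus were not counted.

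**Figure D4:**
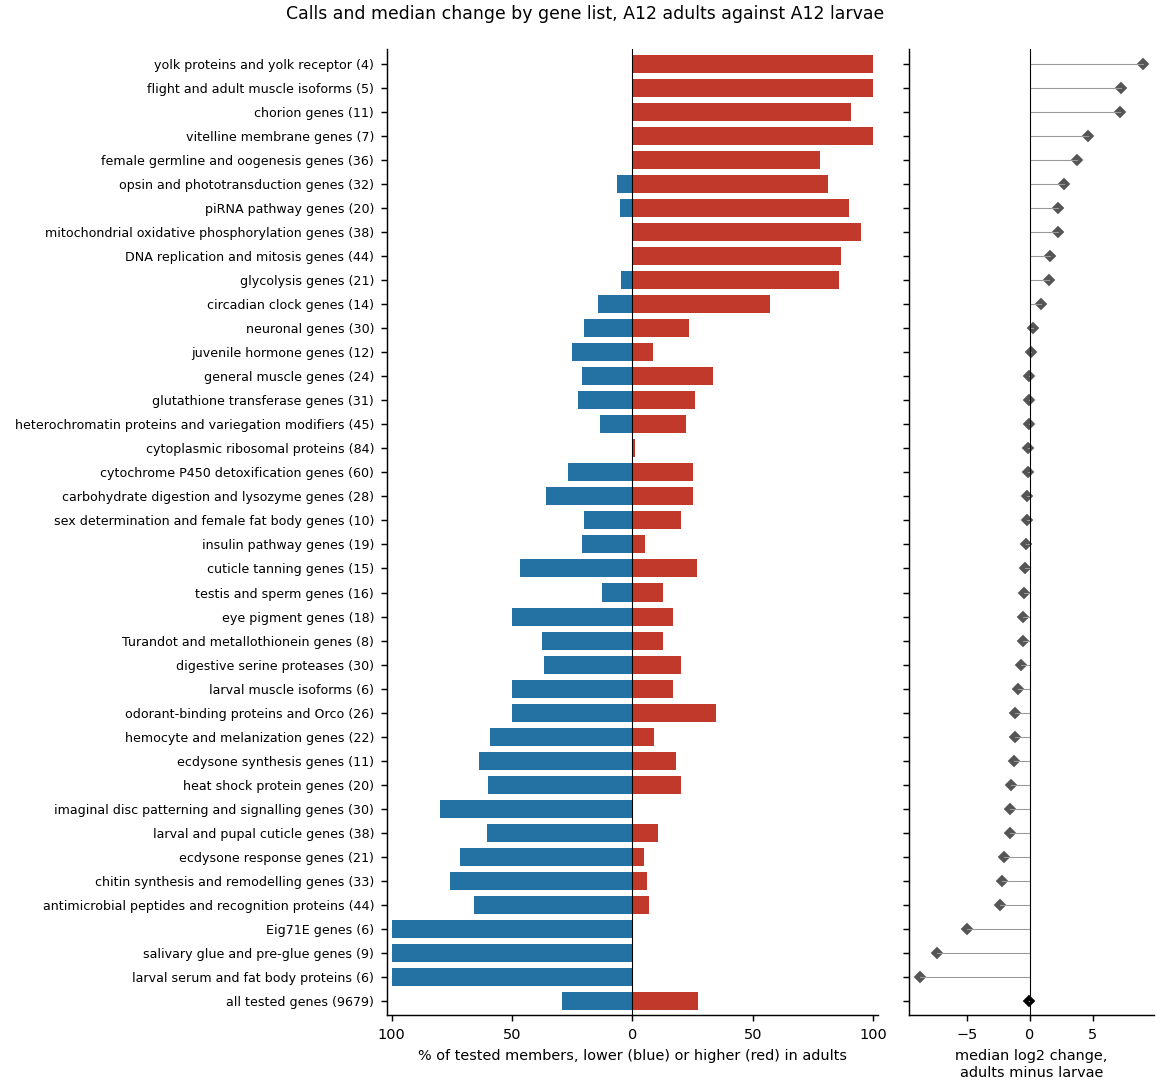
Percent of tested members that rose and that fell in A12 adults (left) and median change on the log2(FPKM + 1) scale after centring (right), for lists with at least 4 tested members and for all 9679 genes. Among all genes 27.1% rose and 29.2% fell, and the ribosomal protein list lies nearest to no calls.

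Digestive and detoxification genes moved in both directions, as did all tested genes, of which 27.1% rose and 29.2% fell. Of 30 digestive serine proteases, 6 rose (20.0%) and 11 fell (36.7%). Jon66Ci, a Jonah protease, stood at 6.54 and 6.22 FPKM in the adult libraries and at 1001 and 1719 in the larval libraries (change -8.01 ± 0.34, adjusted p = 5.36e-06). The trypsin gene lambdaTry went from 0.223 and 1.27 FPKM in larvae to 59.5 and 87.9 in adults (change 4.92 ± 0.41), and the serine protease gene Ser7 went from 0.240 and 0.337 FPKM in larvae to 8.87 and 10.4 in adults (change 2.51 ± 0.22). Both families hold close paralogs, whose reads can be misassigned. The number of proteases that fell was 5 in place of 11 without adult replicate 1 or without larval replicate 2, and 16 without larval replicate 1. Of 28 carbohydrate digestion and lysozyme genes, 7 rose (25.0%) and 10 fell (35.7%), with a median of -0.25. Without larval replicate 2 these counts were 11 and 8 and the median 0.21, and without any other single A12 library 4 rose and 7 to 12 fell, with a median of -0.07 without adult replicate 1 and -0.78 without larval replicate 1.

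Of 60 cytochrome P450 genes, 15 rose (25.0%) and 16 fell (26.7%), near the 27.1% and 29.2% of all genes, with a median of -0.18. Without centring 25 rose and 11 fell with a median of 0.36. The median was also above 0 without adult replicate 1, at 0.10, and without larval replicate 2, at 0.20. It was -0.39 without adult replicate 2 and -0.38 without larval replicate 1. Cyp4g1, the oenocyte enzyme that makes the hydrocarbons of the cuticle surface, stood at 3366 and 3306 FPKM in the adult libraries and at 69.01 and 55.1 in the larval libraries (change 5.20 ± 0.19, adjusted p = 3.68e-06). It was by far the strongest of those that rose. Cyp6a19 was listed at 0 in both larval libraries and at 103 and 67.1 FPKM in adults. Cyp304a1 went from 28.9 and 34.3 FPKM in larvae to 0.647 and 0.851 in adults (change -4.76 ± 0.26), and Cyp6d2 went from 40.4 and 33.4 FPKM in larvae to 4.57 and 3.51 in adults (change -3.45 ± 0.17). Of 31 glutathione transferases, 8 rose (25.8%) and 7 fell (22.6%), also near the shares of all genes, and without centring 14 rose and 4 fell. These counts were 7 and 4 without adult replicate 1, and 11 and 4 without larval replicate 2. GstE6 went from 3.76 and 6.08 FPKM in larvae to 210.3 and 186 in adults (change 4.56 ± 0.32), and GstO3 went from 280.1 and 253 FPKM in larvae to 52.01 and 64.5 in adults (change -2.72 ± 0.21).

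Heterochromatin proteins and modifiers of variegation, which bear on the question of the series, were mostly not called between the stages. Of 45 tested, 10 rose (22.2% against 27.1% of all genes), 6 fell (13.3% against 29.2%) and 29 were not called. The median was -0.11. Without centring 18 rose and 1 fell, and the median was 0.43. The counts of higher and lower genes were 5 and 5 without adult replicate 1, 10 and 2 without adult replicate 2, and 6 and 1 without larval replicate 1. The Polycomb group gene esc stood at 15.2 and 10.2 FPKM in the adult libraries and at 1.89 and 1.43 in the larval libraries (change 1.81 ± 0.17, adjusted p = 0.000179). The variegation modifier E(var)3-9 had 23.97 and 15.05 FPKM in adults against 6.46 and 4.63 in larvae (change 1.09 ± 0.17), and the insulator protein gene CTCF had 19.4 and 16.7 FPKM in adults against 8.07 and 6.52 in larvae (change 0.66 ± 0.13). The gene ph-p, of the Polycomb group, had 1.01 and 0.964 FPKM in adults against 4.69 and 3.34 in larvae (change -1.86 ± 0.20). The heterochromatic genes lt, at 18.5 and 14.5 FPKM in adults against 12.4 and 8.74 in larvae, and rl, at 22.5 and 17.99 FPKM in adults against 15.1 and 9.84 in larvae, were not called (adjusted p = 0.72 and 0.494), and both passed as higher without centring (0.0482 and 0.0438).

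Several of the largest changes belonged to genes that the lists do not hold. CG14645 was listed at 0 in both larval libraries and at 2237 and 3686 FPKM in adults (adjusted p = 1.6e-06), and CG2444 was listed at 0 in both adult libraries and at 6957 and 3998 FPKM in larvae (adjusted p = 5.29e-07). CG34172 went from 0.0673 and 0.0935 FPKM in larvae to 988 and 1465 in adults (change 9.58 ± 0.32), and CG16826 went from 1.75 and 0.947 FPKM in larvae to 1865 and 3400.0 in adults (change 9.55 ± 0.33). CG12374 went from 3.76 and 1.601 FPKM in larvae to 3833 and 4540.3 in adults (change 9.67 ± 1.39, adjusted p = 0.00115). CG1678 rose by 9.31 ± 0.39 and CG16904 by 8.30 ± 0.28. On the larval side CG42500 went from 15569 and 30415 FPKM in larvae to 8.51 and 4.88 in adults (change -12.04 ± 0.51), and CG34166 went from 8181 and 8838 FPKM in larvae to 70.4 and 35.8 in adults (change -7.91 ± 0.42). These were among the 8 strongest genes of the larvae. CG7606 went from 1006 and 1306 FPKM in larvae to 0.634 and 0 in adults (change -10.35 ± 0.26), and CG34282 went from 1323 and 1992 FPKM in larvae to 1.15 and 0.803 in adults (change -10.22 ± 0.30).

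By chromosome the shares of calls varied around those of all genes. On X 29.3% of 1558 genes rose and 24.8% fell, with a median change of 0.05, and on 3L 25.4% of 1892 rose and 32.9% fell, with a median of -0.14. On 2L, 2R and 3R between 26.4% and 27.8% rose and between 28.5% and 30.7% fell. On chromosome 4, the small chromosome rich in heterochromatin, 14.5% of 69 genes rose and 24.6% fell. Of 26 runs of at least 6 neighbouring tested genes with the same call, 19 fell and 7 rose. Besides the Enhancer of split and Eig71E runs, 8 genes from obst-F to CG17147 fell on 3L (20193264 to 20218424).

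The same stage difference was measured in A4 animals. Its means come from the A4 libraries, but the filter and the spread are shared by all 8 libraries, so the calls of the genotypes are not independent. In A4 53.5% of the genes were called between the stages, and 3727 genes were called in the same direction in both genotypes, 68.4% of the A12 calls and 71.99% of the A4 calls, or 38.5% of all genes tested. Another 182 genes, 1.88%, were called in opposite directions, and 1540 A12 calls were not called in A4. A gene listed at 0 in every A4 library has an A4 change of -0.96 from centring alone, which can pass as a fall. This held for CG32762 (adjusted p = 0.0053) and PGRP-SB2 (0.031), so the shared calls include genes without a measured level in A4. The difference between the genotypes in their stage change passed the interaction test for 1508 genes, 15.6%, with 934 changes above those of A4 and 574 below. That number was 671 without A4 adult replicate 2, 799 without A4 adult replicate 1, 874 without A12 larval replicate 1 and 932 without A12 adult replicate 2. Without A4 larval replicate 1 it was 1074, and without replicate 2, the library with 28 testis genes, 1091. No gene of the yolk, vitelline membrane, piRNA or ribosomal protein lists passed the interaction, and 1 chorion gene, Cp19, did.

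Several lists held larger shares of interaction genes than the 15.6% of all genes. Of the 38 oxidative phosphorylation genes 18 passed, of 38 larval and pupal cuticle genes 17, of 30 digestive proteases 14 and of 60 cytochrome P450 genes 23. For sesB the A4 change was 1.17 ± 0.23 against 3.09 ± 0.23 in A12, an interaction of 1.93 ± 0.32 (adjusted p = 0.0115), and for Hex-C it was 3.00 ± 0.14 against 4.69 ± 0.14 (adjusted p = 0.00351). In A4 the library medians before centring were 2.91 and 2.99 in larvae and 3.95 and 3.88 in adults, against 3.54 and 3.27 and then 4.05 and 3.84 in A12. The A4 stages thus lay further apart before centring, and without centring 1704 genes passed the interaction. A gene with equal FPKM at both stages has a change of about -0.54 in A12 and -0.96 in A4. Centring thus raised every A12 minus A4 value, and the split into 934 above and 574 below holds for centred values only.

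The gene with the smallest interaction p, Drsl5, had 252 and 198 FPKM in A4 adults and 1.67 and 1.43 in A4 larvae, so that it rose in A4 and fell in A12 (adjusted p = 8.74e-05). CG7924 went from 1709 and 843 FPKM in larvae to 0.434 and 0.594 in adults in A12 and had 0.538 and 0.772 and then 1.04 and 1.48 FPKM in A4 larvae and adults (adjusted p = 0.00014). CG12272 was listed at 0 in A12 adults with 13.99 and 13.6 FPKM in larvae, and had 7.76 and 8.36 in A4 adults and 0 and 0 in A4 larvae. CG12522 was at 0 in adults and 1.32 and 0.948 FPKM in larvae of A12, against 103 and 134 FPKM in A4 larvae. CG32762 was at 0 in A12 adults and 122 and 84.00 FPKM in A12 larvae, and was listed at 0 in every A4 library. CG3814 was listed at 0 in all 4 A12 libraries and had 75.6 and 69.9 FPKM in A4 larvae. The tanning gene e gave another contrast, since in A4 it had 1.16 and 0.423 FPKM in larvae and 6.08 and 7.98 in adults (interaction -8.09 ± 0.73, adjusted p = 0.0016).

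**Figure D5:**
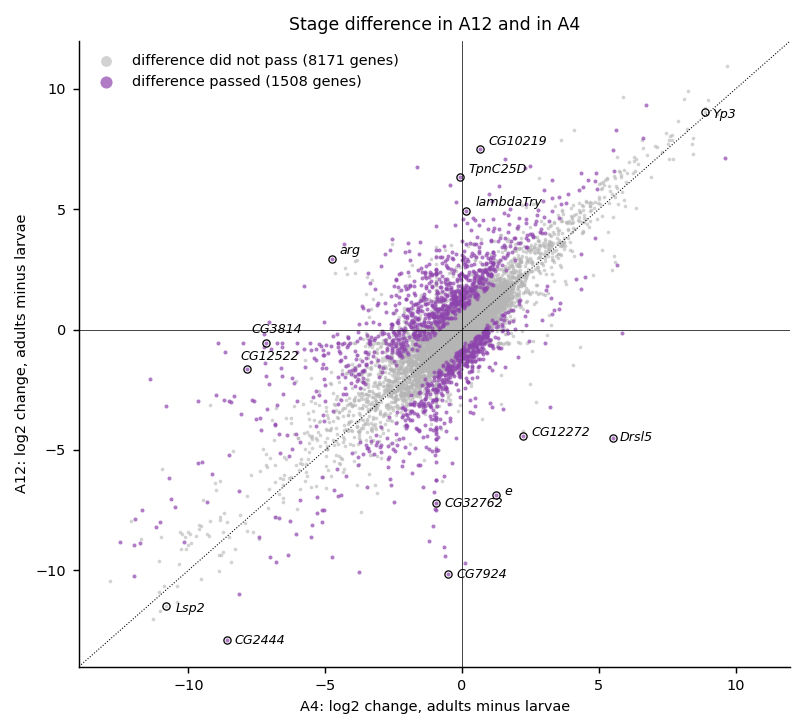
Stage change (adults minus larvae, log2(FPKM + 1) after centring) of each tested gene in A4 (horizontal axis) and in A12 (vertical axis), with the 1508 genes that passed the interaction test in colour and the other 8171 in grey. Of all genes shown 3727 were called in the same direction in both genotypes, some of them listed at 0 in every A4 library. Drsl5 lies in the quadrant where A12 fell and A4 rose.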

How the data were processed

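The FPKM values of 15296 gene models in each of 8 libraries were deposited by the authors, with confidence bounds and a status. Cufflinks, Bowtie, Bowtie2 and TopHat 0.6 are named with build dm3 per the submitters' processing notes, with options not given in the sources used here. PolyA RNA went through Ribo-Zero treatment and the TruSeq kit, per the labels' protocols. The log2 ratios in a further deposited table compare A4 with A12 only and were not used here.

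After removal of 17 genes whose status was failed or high-data, tests covered 9679 genes with 1 FPKM or more on average over all 8 libraries. Values were taken as log2(FPKM + 1), each library was centred at its median, and the 4 groups were fitted together with limma 3.58.1 in R 4.3.3, with eBayes and a mean-variance trend. Each p-value was adjusted by Benjamini and Hochberg over all tested genes, with a threshold of 0.05. The fit shares 1 spread over the groups and has 4 residual degrees of freedom. FPKM are not counts, so no count test was used. The sources used here do not give the strand, so genes that overlap on opposite strands cannot be told apart. Small RNA genes took 63.1% to 81.4% of the FPKM sum in the A12 libraries, and shares are given without them. Tables were made with Python 3.11.15, pandas 2.3.3 and numpy 2.4.6, and figures with matplotlib 3.10.9.

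The 42 gene lists were written by function, and the comparison and lists were chosen with earlier results of these data known. Genes were named by a rule. It took the 12 largest increases and decreases among called genes whose libraries did not overlap, up to 4 members of each list with the smallest p, all members of lists of at most 7, the 8 strongest genes of each stage, the 8 smallest interaction p-values, and roX1, roX2, Sxl, w, lt and rl. Of 203 such genes 154 are named. A further 25 were named after their values were seen, namely Cp36, Cp7Fb, grk, tud, squ, CycA, Mcm5, Send2, pinta, santa-maria, elav, Mhc, blw, Idh, Lsp1alpha, Rfabg, Sgs3, Cpr49Ae, kkv, ftz-f1, phm and 4 genes of the Enhancer of split complex.

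Other settings tried were no centring, quantile normalization, pseudocounts of 0.1 and 5, filters of none and 5 FPKM, robust eBayes and eBayes without its trend, A12 libraries alone, each library left out in turn, a block for replicate number, no genes listed at 0, no small RNA genes and stricter thresholds. A linear scaling of libraries and a fit without both A4 larval libraries were added after seeing the data.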

Additional observations from a re-analysis of the deposited data

Results flagged for a closer look

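The stage change of A12 differed from that of A4, by the interaction test of the limma fit, for 52 of the genes named above, while 15.6% of all tested genes passed. The named genes include the 8 with the smallest interaction p, and many others were picked by their stage change. Their share is therefore not comparable with that of all genes. The values below are the A12 change minus the A4 change on the log2(FPKM + 1) scale. They were taken after centring, which lowered the A4 changes more than the A12 changes and so raised every value. A value can come from the larvae, the adults or both. Where a group is listed at 0, as for nos, dup, Send1, TpnC25D, Eig71Ea, ImpE2, PGRP-SB2, CG2444, CG10219, CG12272, CG12522, arg, CG32762, CG3814 and, in A4 larvae, Cp19, the value depends on the pseudocount and is no bound.

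Among genes of the egg and the female tract the difference was -2.48 for Cp19, 1.05 for nos, 1.28 for dup, 3.06 for Send1 and -1.06 for Ilp8. In the sensory and neuronal genes it was -2.40 for santa-maria, 1.46 for tim and -2.60 for Ddc.

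In muscle it was 1.95 for fln, 6.44 for TpnC25D, 2.34 for Act57B, 1.82 for Act87E, 4.51 for TpnC47D and 2.61 for Mhc, all above A4. In energy metabolism it was 1.56 for ND23, 1.90 for Cyt-c-p, 1.93 for sesB, 1.22 for blw, 1.69 for Hex-C, 1.55 for UGP, 2.12 for Gpo-1 and 6.87 for CG10219. The fat body gene Rfabg differed by 1.54.

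Larval genes differed both ways, by 3.10 for ng3, -5.10 for Eig71Ea, -2.84 for Cpr49Ac, -1.66 for Pcp and -1.18 for Cht3. The tanning genes gave -0.95 for yellow-e, -8.09 for e and 2.65 for yellow-f2. The ecdysone response genes gave -3.10 for ImpE2 and -3.24 for ImpE3.

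In digestion and detoxification the difference was 3.05 for Jon66Ci, 4.77 for lambdaTry, 1.60 for Cyp4g1 and 4.097 for GstE6. Immune and stress genes gave -6.52 for PGRP-SB2, -2.99 for TotA, -2.45 for Hsp23, -2.45 for Hsp67Bc and -9.99 for Drsl5.

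Of the other genes, CG1678 differed by 2.60, CG16904 by 2.69, CG2444 by -4.31, CG34282 by 1.76, CG12272 by -6.64, CG12522 by 6.22, CG7924 by -9.65, arg by 7.67, CG32762 by -6.25 and CG3814 by 6.63. The highest levels of CG12522 and CG3814 were those of A4 larvae, at 103 and 134 and at 75.6 and 69.9 FPKM. The gene arg was at 10.8 and 15.4 FPKM in A4 larvae and at 12.2 and 8.06 in A12 adults, and listed at 0 in the other 4 libraries.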

How the results depend on the processing

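The count of higher genes was 3974 without centring, and that of lower genes 1701 without centring and 5465 with no filter on low values, where many genes near 0 are tested and centring moves them. Leaving out each of the 8 libraries in turn gave 2177 to 2646 higher and 2407 to 2854 lower genes. The interaction count ran from 671 to 1508 over these, and was 468 at an adjusted p of 0.01. Replicate numbers were used to name libraries only. The correlations of the replicate differences between groups lay from -0.06 to 0.09, which cannot show whether the numbers mark a shared batch. With the replicate block 2649 genes were higher, 2870 lower and 1525 passed the interaction, and no named gene changed its call. Of 178 named genes tested, 160 kept their call in all 22 alternative fits in which they were tested, and none reversed. The exceptions were Cp7Fb, tud, RpS5a, tra, tra2, vir, Act57B, Mp20, Act87E, TpnC47D, Mhc, Idh, Rfabg, lt, rl, roX1, Mst87F and CG3814. Mp20 lost its call in 12 fits. With 2 libraries a group and no read counts, weak genes and small changes are the least certain, and their depth limit cannot be given.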
